A study of Mus musculus with 16 samples.

Results

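The 43 interferon-stimulated genes described here were taken by gene name from the 22612 genes measured by RNA sequencing in mouse liver, and all 43 were found. Of these, 32 are induced mainly by type I interferons, 7 are GTPases induced by interferon gamma, 3 belong to antigen processing, and Irf1, a transcription factor that both kinds of interferon induce, was placed in neither class. Male C57BL/6 mice, 7 weeks old when bought, were kept on 1 of 4 diet regimens for 16 weeks. HK mice received a high-fat diet (58% of energy as fat) and a ketogenic diet (90.5%) in turn, changing every 2 weeks. HC mice received the high-fat diet and chow (11%) in turn, also changing every 2 weeks. H mice received the high-fat diet throughout, and N mice received chow throughout. Each regimen had 6 mice and is represented by 4 libraries of liver collected after overnight fasting. Which diet the HK and HC mice ate last is not given in the labels, nor whether each library is 1 animal, so the p-values speak of the spread between libraries, which may be technical.

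Type I interferons signal through the receptor IFNAR and the kinases JAK1 and TYK2 to a transcription factor complex that contains STAT2 and IRF9 and binds the interferon-stimulated response element (ISRE). Interferon gamma signals through its own receptor, JAK1 and JAK2, and its target genes carry the gamma-activated site (GAS). The induced genes restrict viral RNA, tag proteins with ISG15, attack vacuoles that hold pathogens, and supply peptides for presentation, and in the liver both hepatocytes and resident macrophages respond.

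RefSeq promoter windows on GRCm38.p6, each running from 250 bases before to 50 bases after the start site, were matched for 32 of the 43 members. They were searched on both strands for ISRE as GAAA, any 2 bases and GAAA, and for GAS as TTC, any 3 bases and GAA, and matches of ISRE may overlap each other. An ISRE match lay in 17 of the 32 windows (53.1%), against 3.99% of 27025 gene windows, and a GAS match in 8 (25%), against 9.55%. By class, ISRE was found in 12 of 22 type I members, 5 of 6 GTPases and 0 of 3 antigen processing genes. GAS was found in 4 of 22 type I members, 2 of 6 GTPases and 1 of 3 antigen processing genes. A lack of match says only that these letters are absent from the window. The stretches below hold the matches of genes whose values are given later, with ISRE matches in capitals and each stretch written 5′ to 3′ along the gene's strand. They are Isg15 (chr4:156200855-156200916, minus strand), Ifit1 (chr19:34640765-34640833, plus), Ifit3 (chr19:34583353-34583436, plus), Ifit3b (chr19:34607749-34607832, plus), Oas1a (chr5:120907526-120907565, minus), Oas1g (chr5:120887614-120887651, minus), Gbp3 (chr3:142559979-142560025, plus) and Igtp (chr11:58199502-58199551, plus).
Isg15: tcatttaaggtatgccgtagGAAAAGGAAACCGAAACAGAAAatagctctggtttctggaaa
Ifit1: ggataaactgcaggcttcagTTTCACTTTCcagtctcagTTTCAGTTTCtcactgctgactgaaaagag
Ifit3: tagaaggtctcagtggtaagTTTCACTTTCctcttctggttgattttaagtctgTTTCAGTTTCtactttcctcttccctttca
Ifit3b: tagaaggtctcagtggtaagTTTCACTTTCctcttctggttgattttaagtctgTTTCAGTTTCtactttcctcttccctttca
Oas1a: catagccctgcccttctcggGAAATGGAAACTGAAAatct
Oas1g: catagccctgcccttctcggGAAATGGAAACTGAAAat
Gbp3: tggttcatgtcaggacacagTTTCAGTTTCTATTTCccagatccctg
Igtp: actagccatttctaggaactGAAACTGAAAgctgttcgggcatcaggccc
The Isg15 stretch holds 3 overlapping matches in 1 run. The Ifit3 and Ifit3b stretches were identical over all 84 bases compared, and those of Oas1a and Oas1g over all 38 shared bases. These pairs are known near-copies, so the division of reads between Ifit3 and Ifit3b, between Oas1a and Oas1g, and among the Gbp and immunity-related GTPase genes is uncertain.

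**Figure D1:**
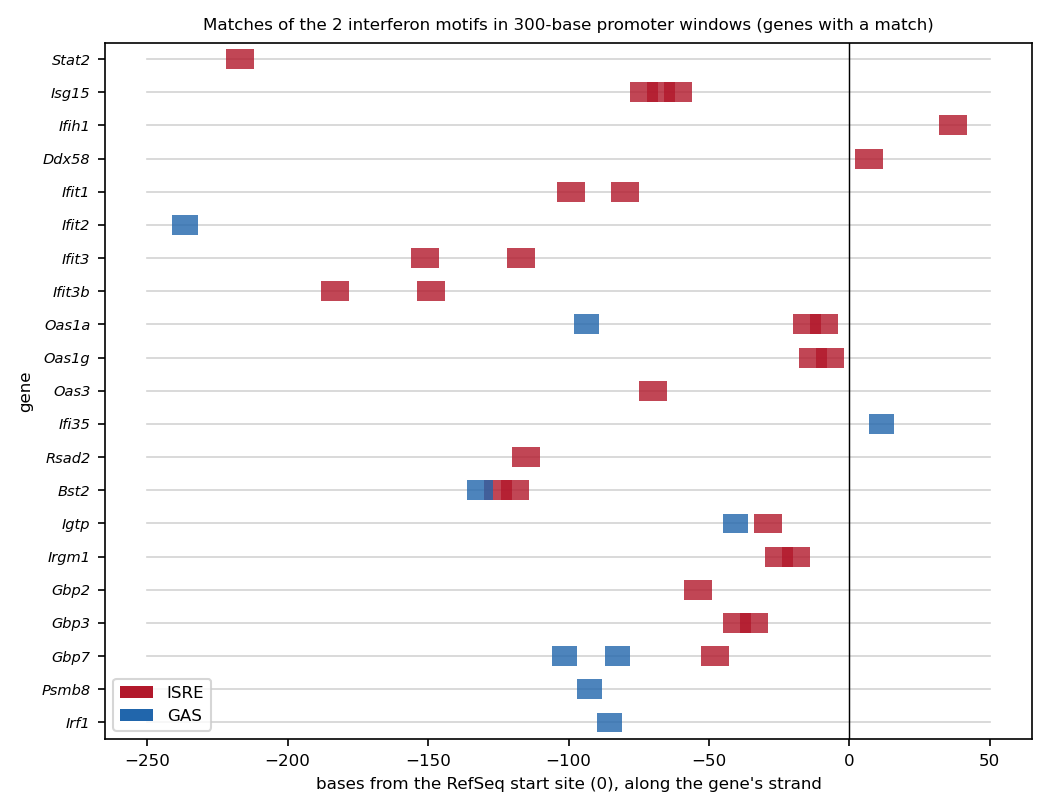
Positions of ISRE (red) and GAS (blue) matches in promoter windows, in bases from the RefSeq start site along the gene's strand, for the members with a match. Red matches lie upstream of the start site in all but Ifih1 and Ddx58, and darker red marks overlapping matches of 1 gene.

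Levels are TPM, a transcript abundance scaled for transcript length in which every library sums to the same total. Sequencing depth is unknown, because TPM keeps none, and 10575 to 11695 genes reached 1 TPM per library. The 20 highest genes took between 27.1% and 38.8% of a library's TPM, with shares of 27.1% to 29.5% in HK, 29.8% to 31.5% in HC, 30.04% to 34.3% in H and 28.97% to 38.8% in N. A larger share there lowers the TPM of all other genes. HK1 stood apart, with 434 TPM of 9 recruited macrophage markers, 205 TPM of 7 cholangiocyte markers and 102 TPM of 6 plasmacytoid dendritic cell markers other than Bst2, of which Ly6d gave 86.9. The other 15 libraries had 97.5 to 193 TPM, 35.2 to 158 TPM and 6.65 to 19.6 TPM of these lists. Averaged over the 16 libraries, members ran from 0.302 TPM for Oas3, an oligoadenylate synthetase, to 337 TPM for Bst2, a membrane protein that tethers budding virus. The group mean was highest in HK for 34 of the 43 members, in H for 8 and in N for 1, Bst2. It was lowest in N for 25 members, in HC for 17 and in HK for 1.

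**Figure D2:**
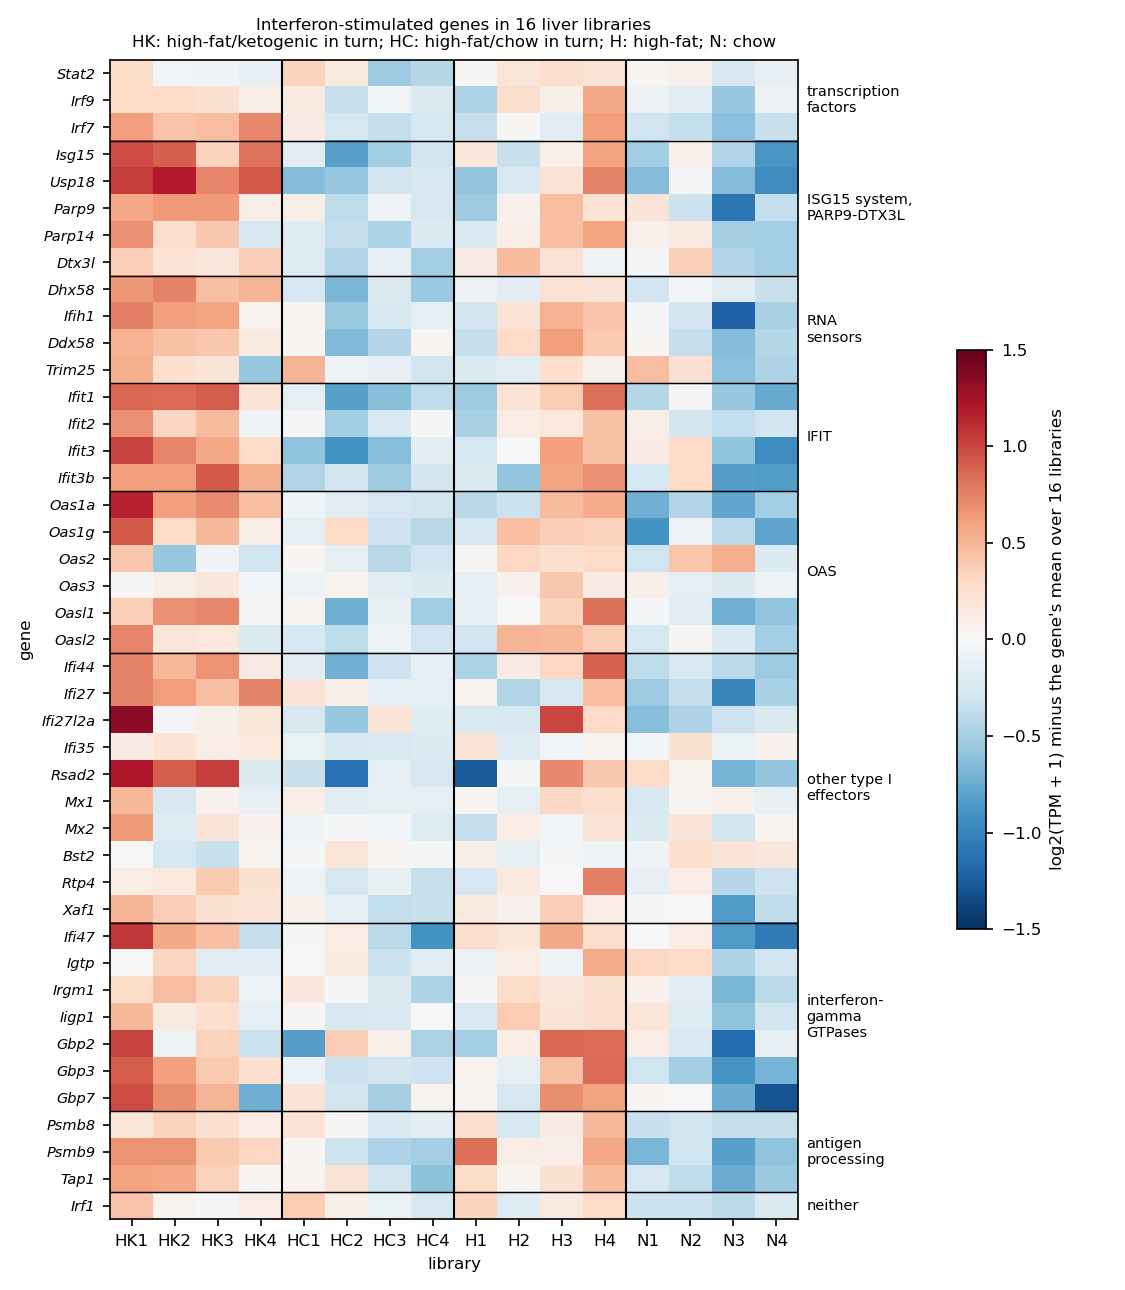
log2(TPM + 1) of each of the 43 members (rows, by role) in each of the 16 libraries (columns), minus the gene's mean over all 16 libraries. The HK columns are mostly red and the HC and N columns mostly blue, while the H columns differ among themselves.

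Of the 43 members, 41 passed the filter of 1 TPM in at least 4 of the 16 libraries. Mx1 reached 1 TPM in 1 library and Oas3 in 0, and neither was tested. A limma F test over the 4 regimens on log2(TPM + 1), adjusted by Benjamini-Hochberg over all 11450 genes tested, called 11 of the 41 at an adjusted p below 0.05, against 3.87% of all genes. These were 8 of 30 type I members, 1 of 7 GTPases and 2 of 3 antigen processing genes. The smallest adjusted p-values were 0.0024 for Psmb9, an immunoproteasome subunit, 0.00326 for Dhx58, an RNA helicase that regulates RNA sensing, and 0.00365 for Usp18, the protease that removes ISG15. Without HK1 the F test called 7 members.

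In livers of mice that alternated between the high-fat and the ketogenic diet, the ISG15 pair Isg15 and Usp18, the regulator Irf7, the effectors Oas1a, Ifi27 and Ifit1, and the immunoproteasome subunit Psmb9 were higher than in both chow livers and livers of mice that alternated with chow. No member was called lower. Against livers on the high-fat diet throughout, 0 of 41 members were called (0.036% of 11108 genes), and the HK and H libraries overlapped for each of the 7 genes. Of these 7, Isg15, Usp18 and Psmb9 kept both calls under all alternatives, while Irf7, Oas1a and Ifi27 lost the call against HC livers in a fit to all 16 libraries (adjusted p up to 0.113), and Ifit1 lost the call against N livers without HK2 or HK3 (adjusted p up to 0.0605). Irf7 and Ifi27 lost it against HC livers also with each library centred on its median gene. HK livers were set against N livers and against HC livers, each comparison fitted to its 8 libraries with limma and adjusted over all genes tested, and a member was called where the adjusted p was below 0.05, whatever the size of its fold change. Both comparisons contain the same HK libraries and are not independent. In bulk liver, more cells of a type and more RNA per cell cannot be told apart. In HK vs N, 16 of 41 members were called higher and 0 lower, against 5% of 11091 genes called in either direction and 3.67% called higher. They were 12 of 30 type I members, 1 of 7 GTPases and 3 of 3 antigen processing genes. Ifi44, 1 of the 12, passed the filter only through its HK libraries. In HK vs HC, 17 of 41 were called higher and 0 lower, against 5.04% of 11002 genes in either direction and 4.31% higher. They were 15 of 30 type I members, 1 of 7 GTPases and 1 of 3 antigen processing genes. Every HK library lay above every N library for 22 of the 41 members (9.34% of all genes) and above every HC library for 19 of the 41 (14.7%). The 2 lists of calls shared 12 genes, which is 12 of the 16 and 12 of the 17.

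The ISG15 system stood among the members with the largest differences. Usp18 (chromosome 6, 121245906 to 121270917, plus strand) had 17.9, 19.99, 14.2 and 16.3 TPM in HK livers, 4.87, 5.2, 6.56 and 6.74 in HC livers, 5.09, 6.81, 9.54 and 14.3 in H livers and 4.85, 8.06, 4.84 and 3.83 in N livers. The lowest HK library lay just under the highest H library and above all HC and N libraries. Its log2 fold change, here and below on the log2(TPM + 1) scale with its standard error, was 1.53 ± 0.20 (adjusted p = 0.00181) in HK vs N and 1.40 ± 0.14 (adjusted p = 0.000724) in HK vs HC. Isg15, the ubiquitin-like modifier itself, had 39.2, 37.1, 25 and 34.9 TPM in HK livers, 17.2, 10.6, 13.2 and 15.5 in HC livers, 22, 15.2, 20.5 and 29.9 in H livers and 13.2, 20.6, 13.9 and 10.1 in N livers. Its HK libraries did not overlap with HC or N, and the fold changes were 1.20 ± 0.21 (adjusted p = 0.00965) and 1.21 ± 0.17 (adjusted p = 0.0056). Parp9 and Dtx3l form a complex that modifies histones in the interferon response, and their gene models share 682 bases on opposite strands, so reads there may not be separable. Parp9 had 25.8, 27, 26.9 and 18.3 TPM in HK livers, 18.1, 12.7, 16.1 and 14.2 in HC livers, 11.4, 17.8, 23.7 and 19.6 in H livers and 19.4, 13.3, 7.46 and 13 in N livers. Dtx3l had 6.54, 5.8, 5.62 and 6.59 TPM in HK livers, 4.14, 3.31, 4.42 and 3.13 in HC livers, 5.41, 7.19, 5.82 and 4.68 in H livers and 4.81, 6.53, 3.34 and 3.12 in N livers. In HK vs HC Parp9 rose (0.64 ± 0.15, adjusted p = 0.0377) and Dtx3l rose (0.59 ± 0.13, adjusted p = 0.0312), whereas in HK vs N the values were 0.89 ± 0.24 (adjusted p = 0.0631) and 0.43 ± 0.20 (adjusted p = 0.241), not past the test. Parp14, a mono-ADP-ribosyltransferase, spanned 2.82 to 7.73 TPM over all libraries and was called in neither.

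Among the transcription factors, Irf7, which amplifies interferon production, had 42.8, 37.2, 38.2 and 46 TPM in HK livers, 30.1, 22.7, 21.2 and 22.7 in HC livers, 21.3, 27.9, 24.3 and 43 in H livers and 22.2, 21, 17.5 and 21.6 in N livers. HK lay above all HC and N libraries, while 1 H library, H4, reached the HK range. Irf7 rose in HK vs N (0.96 ± 0.14, adjusted p = 0.00278) and in HK vs HC (0.75 ± 0.12, adjusted p = 0.0103). Neither Irf9 nor Stat2, the members that belong to the complex that binds ISRE, passed the test in either comparison. Irf9, its DNA-binding subunit, had 21.9, 21.8, 20.8 and 19 TPM in HK livers, 19.4, 13.7, 17.1 and 15.2 in HC livers, 12.5, 21.4, 18.9 and 26.7 in H livers and 16.5, 15.6, 11.6 and 16.6 in N livers. Stat2 had 23.9, 19, 18.7 and 17.9 TPM in HK livers, 24.9, 21.8, 13.1 and 14.3 in HC livers, 19.9, 22.4, 23.8 and 22.7 in H livers and 20.1, 20.8, 16.4 and 18 in N livers. For Irf9 the HK libraries lay above all N libraries but the fold change in HK vs N was 0.46 ± 0.15 (adjusted p = 0.11), and for Stat2 all groups overlapped (0.07 ± 0.15, adjusted p = 0.785). Irf1 had 30.2, 23.2, 21.8 and 24 TPM in HK livers, 29.3, 23.8, 20.6 and 18.6 in HC livers, 28.2, 19.3, 24.5 and 27.5 in H livers and 17.7, 17.6, 16.7 and 19 in N livers. It had 0.45 ± 0.14 (adjusted p = 0.0951) in HK vs N, where every HK library was above every N library, and 0.11 ± 0.15 (adjusted p = 0.629) in HK vs HC.

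Of the cytosolic RNA sensors and their regulators, Dhx58 differed most between HK and HC. Dhx58 had 11.1, 11.9, 9.53 and 10.01 TPM in HK livers, 5.47, 3.82, 5.63 and 4.26 in HC livers, 6.26, 5.84, 7.98 and 7.83 in H livers and 5.34, 6.6, 5.9 and 5.15 in N livers. All 4 HK libraries lay above all 12 others. It rose in HK vs N (0.79 ± 0.15, adjusted p = 0.0133) and in HK vs HC (1.01 ± 0.14, adjusted p = 0.00487), and in HK vs H its 0.55 ± 0.17 (adjusted p = 0.486) did not pass. Ifih1, which encodes the sensor MDA5, had 14, 12.7, 12.4 and 8.2 TPM in HK livers, 8.12, 5.04, 6.56 and 7.13 in HC livers, 6.34, 9.27, 11.8 and 11 in H livers and 7.71, 6.33, 2.85 and 5.33 in N livers. Ddx58, which encodes RIG-I, had 15.3, 14.4, 14.1 and 11.5 TPM in HK livers, 10.6, 6.16, 7.38 and 10.7 in HC livers, 7.88, 12.9, 16.5 and 14 in H livers and 10.6, 7.86, 6.25 and 7.45 in N livers. HK4 was the lowest HK library for both. Ifih1 rose in HK vs N (1.01 ± 0.25, adjusted p = 0.0443) and in HK vs HC (0.72 ± 0.18, adjusted p = 0.0435), and Ddx58 rose in HK vs N (0.73 ± 0.18, adjusted p = 0.0372) but had 0.64 ± 0.17 (adjusted p = 0.0569) in HK vs HC. Trim25, the ubiquitin ligase that acts on RIG-I, had 18.7 to 41.8 TPM in HK, 22.96 to 40.7 in HC, 24.1 to 33.7 in H and 18.01 to 39.5 in N, and was called in no comparison.

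IFIT proteins bind foreign RNA and block its translation, and their 4 genes lie within 99.3 kb on chromosome 19 (34550694 to 34650009). Ifit1 had 10.1, 9.98, 10.4 and 6.01 TPM in HK livers, 4.51, 2.46, 2.92 and 3.66 in HC livers, 3.17, 6.04, 6.95 and 9.8 in H livers and 3.51, 5.18, 3.11 and 2.62 in N livers. HK4 was low among the HK libraries but stayed above every HC and N library. Ifit3 had 21.5, 17.6, 15.6 and 12.6 TPM in HK livers, 6.33, 5, 6.15 and 9.02 in HC livers, 8.34, 10.2, 16.1 and 14.1 in H livers and 11.2, 12.8, 6.38 and 4.85 in N livers. Ifit3b had 4.79, 4.78, 6.05 and 4.43 TPM in HK livers, 1.74, 2.07, 1.59 and 2.07 in HC livers, 2.21, 1.51, 4.62 and 5.02 in H livers and 2.12, 3.56, 1.1 and 1.08 in N livers. In HK vs HC all 3 rose, by 1.20 ± 0.20 (adjusted p = 0.00953) for Ifit1, 1.23 ± 0.19 (adjusted p = 0.00772) for Ifit3 and 1.07 ± 0.13 (adjusted p = 0.00345) for Ifit3b. In HK vs N Ifit1 rose (1.14 ± 0.22, adjusted p = 0.0136) and Ifit3b rose (1.09 ± 0.25, adjusted p = 0.0291), while Ifit3, whose lowest HK library was below N2, had 0.93 ± 0.27 (adjusted p = 0.0779). Ifit2 was near the floor of the filter, at 1.19 to 2.69 TPM in HK, 0.602 to 1.26 in HC, 0.641 to 2.11 in H and 0.778 to 1.44 in N, and was not called.

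OAS proteins make the oligoadenylate messenger that activates RNase L, and Oas1a, Oas1g, Oas2 and Oas3 stand together on chromosome 5. Oas1a had 8.32, 5.42, 5.84 and 4.72 TPM in HK livers, 2.98, 2.74, 2.52 and 2.42 in HC livers, 2.12, 2.34, 4.79 and 5.14 in H livers and 1.53, 2.08, 1.43 and 1.94 in N livers. It rose in HK vs N (1.35 ± 0.19, adjusted p = 0.00246), its means differing 3.48-fold, and in HK vs HC (0.93 ± 0.16, adjusted p = 0.0117), and no HK library overlapped with HC or N. Oas1g had 3.5, 1.91, 2.34 and 1.56 TPM in HK livers, 1.18, 1.92, 0.926 and 0.781 in HC livers, 1, 2.25, 2.08 and 2.03 in H livers and 0.284, 1.3, 0.799 and 0.382 in N livers. It rose in HK vs N (0.98 ± 0.24, adjusted p = 0.037), with 0.59 ± 0.21 (adjusted p = 0.113) in HK vs HC. Oasl1, an OAS-like protein known in mouse to limit translation of Irf7, had 8.01, 10.3, 10.6 and 6.07 TPM in HK livers, 6.23, 3.21, 5.48 and 3.86 in HC livers, 5.44, 5.96, 7.86 and 11.4 in H livers and 5.86, 5.27, 3.25 and 3.63 in N livers. Its fold changes of 0.83 ± 0.22 (adjusted p = 0.055) in HK vs N and 0.78 ± 0.21 (adjusted p = 0.0561) in HK vs HC stopped short of the threshold. Oas2 and Oasl2 stayed between 0.519 and 4.29 TPM in all libraries and were not called, and Oas2 had −0.24 ± 0.26 (adjusted p = 0.595) in HK vs N.

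Among the other type I effectors the most abundant after Bst2 was Ifi27, a small hydrophobic membrane protein. Ifi27 had 263, 242, 214 and 264 TPM in HK livers, 179.7, 169, 143 and 142 in HC livers, 162, 114, 132 and 215 in H livers and 107, 122, 79.1 and 111 in N livers. HK lay above HC and N throughout, and H4 alone of the H libraries reached the HK range. It rose in HK vs N (1.23 ± 0.15, adjusted p = 0.00139) and in HK vs HC (0.64 ± 0.11, adjusted p = 0.0113). Ifi44, a cytoplasmic protein with a GTPase-like domain, had 2.87, 2.25, 2.69 and 1.51 TPM in HK livers, 1.06, 0.396, 0.868 and 1.12 in HC livers, 0.657, 1.52, 1.86 and 3.27 in H livers and 0.768, 0.976, 0.741 and 0.578 in N livers. It rose in HK vs N (0.90 ± 0.18, adjusted p = 0.0174) and HK vs HC (0.84 ± 0.19, adjusted p = 0.037). No N library reached 1 TPM, so Ifi44 entered the HK vs N test through its HK libraries alone. Its call there was kept with no filter, and in 10 of the 12 alternatives that tested it. The call in HK vs HC was lost with no filter and kept in 3 of 15 alternatives. Ifi35 had 29.1, 30.8, 28.8 and 29.8 TPM in HK livers, 24.8, 22.4, 22.6 and 23 in HC livers, 30.6, 23.2, 25.9 and 27.4 in H livers and 25.9, 31.4, 24.8 and 28 in N livers. Xaf1, an antagonist of the apoptosis inhibitor XIAP, had 13, 11.7, 10.5 and 10.3 TPM in HK livers, 9.33, 7.89, 6.63 and 6.78 in HC livers, 9.86, 9.26, 11.7 and 9.62 in H livers and 8.68, 8.91, 4.46 and 6.55 in N livers. Both rose in HK vs HC, Ifi35 by 0.34 ± 0.08 (adjusted p = 0.0447) and Xaf1 by 0.52 ± 0.13 (adjusted p = 0.0466), and in HK vs N they had 0.11 ± 0.13 (adjusted p = 0.633) and 0.64 ± 0.20 (adjusted p = 0.0976). With each library centred on its median gene the HK vs HC values were 0.13 (adjusted p = 0.483) for Ifi35 and 0.31 (adjusted p = 0.15) for Xaf1, and each call was kept in 3 of 15 alternatives. Rsad2, which encodes viperin, averaged 6.55 ± 2.7 TPM in HK, 2.18 ± 0.84 in HC, 3.64 ± 2.23 in H and 2.77 ± 1.24 in N (SD, n = 4 each). Its fold change of 1.20 ± 0.31 (adjusted p = 0.0525) in HK vs HC was close to that of Isg15 but did not pass, with HK4 at 2.67 TPM inside the HC range. Ifi27l2a, Mx2, Bst2 and Rtp4 were not called, and Bst2 averaged 306 ± 38.4 TPM in HK and 372 ± 33.4 in N.

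**Figure D3:**
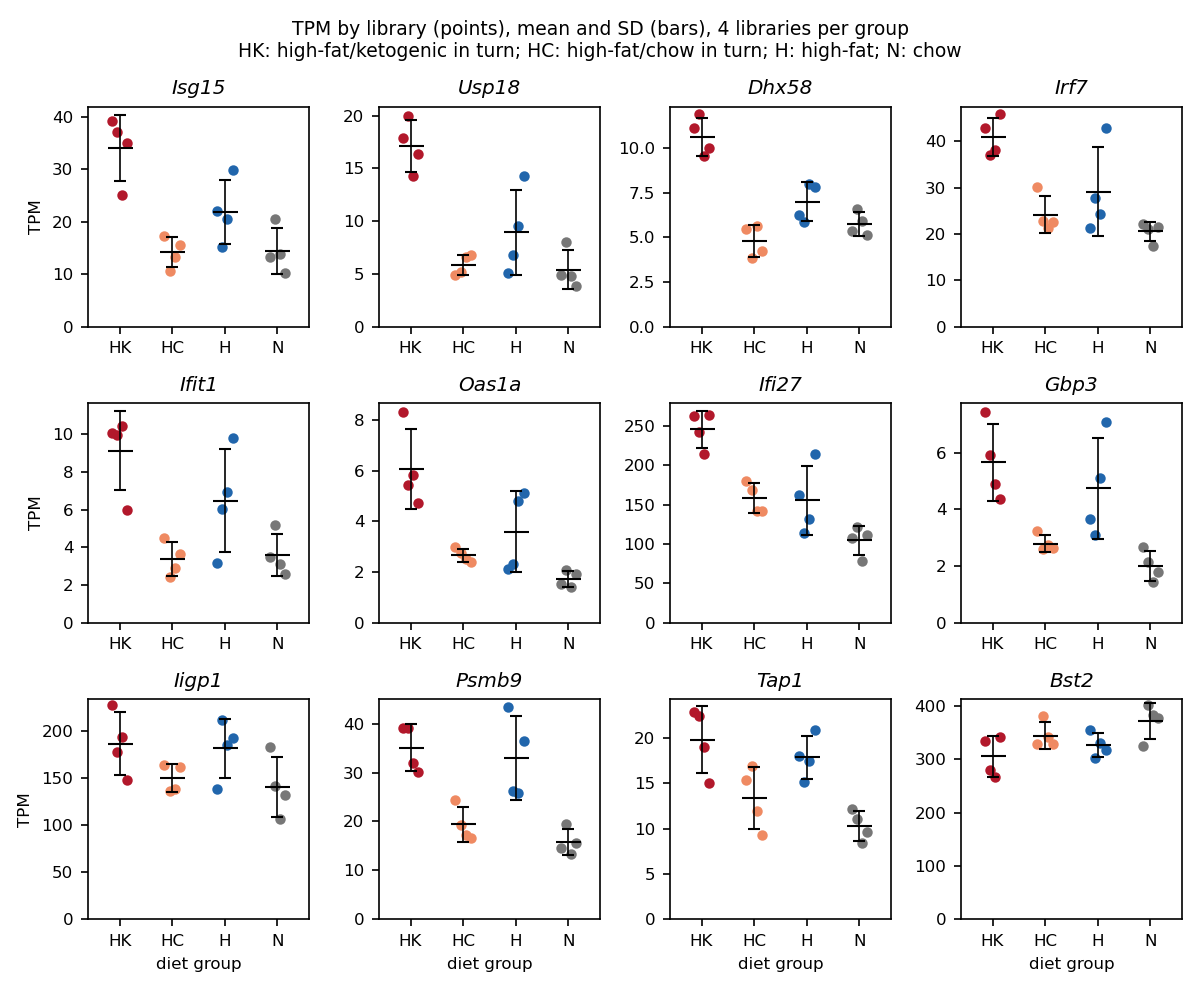
TPM of 12 members in each library (points) with the group mean and SD (bars), 4 libraries per group, each vertical axis starting at 0. In Isg15, Usp18, Dhx58, Irf7, Ifit1, Oas1a, Ifi27, Gbp3 and Psmb9 all HK points lie above all HC and N points, and in Bst2 the groups overlap.

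Interferon-gamma GTPases attack vacuoles that hold pathogens, and of the 7 genes only Gbp3, a guanylate-binding protein, was called in HK vs N or HK vs HC. It had 7.44, 5.91, 4.91 and 4.36 TPM in HK livers, 3.23, 2.6, 2.73 and 2.63 in HC livers, 3.67, 3.11, 5.11 and 7.08 in H livers and 2.66, 2.14, 1.43 and 1.78 in N livers. HK lay above HC and N, and it rose in HK vs N (1.14 ± 0.20, adjusted p = 0.00883) and in HK vs HC (0.79 ± 0.16, adjusted p = 0.0205). Ifi47 had 41.6, 29.1, 26.8 and 14.9 TPM in HK livers, 19.7, 21, 14.4 and 9.93 in HC livers, 23.5, 22.1, 29.2 and 23.4 in H livers and 19.4, 21.1, 10.3 and 8.77 in N livers. Irgm1, a regulator of the other immunity-related GTPases, had 40.8, 46.4, 42.5 and 31.8 TPM in HK livers, 37.9, 33, 28.8 and 24 in HC livers, 33.8, 40.7, 37.8 and 39.5 in H livers and 35.4, 29.9, 20.5 and 25.1 in N livers. In both, HK overlapped with each of the other regimens, with HK4 the lowest HK library. For Ifi47 every H library lay above every HC and N library. The fold changes in HK vs N were 0.88 ± 0.33 (adjusted p = 0.15) for Ifi47 and 0.54 ± 0.18 (adjusted p = 0.121) for Irgm1. Iigp1 was the most abundant GTPase, at 186 ± 33.2 TPM in HK, 149.8 ± 14.6 in HC, 182 ± 31.3 in H and 141 ± 32 in N (SD, n = 4 each), and was called in no comparison. Igtp, Gbp2 and Gbp7 were not called either, and Igtp was level within its spread, at 21.8 ± 3.88 TPM in HK and 21.7 ± 6.1 in N. Gene models of Ifi47 and Olfr56 share 9934 bases on 1 strand, and those of Igtp and Irgm2 share 7974, so their values are uncertain.

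The 3 antigen processing genes lie side by side on chromosome 17 (34181988 to 34200918), and the RefSeq start sites of Psmb9 and Tap1 are 225 bases apart on opposite strands. Psmb9 had 39.2, 39.2, 32 and 30.1 TPM in HK livers, 24.4, 19.3, 17.2 and 16.6 in HC livers, 43.4, 26.2, 25.7 and 36.5 in H livers and 14.6, 19.4, 13.2 and 15.6 in N livers. All HK and all H libraries lay above all HC and N libraries. Tap1, a subunit of the peptide transporter, had 22.9, 22.5, 19 and 15 TPM in HK livers, 15.3, 16.9, 11.9 and 9.29 in HC livers, 18, 15.1, 17.5 and 20.9 in H livers and 12.2, 11, 8.39 and 9.63 in N livers. Psmb8, a second immunoproteasome subunit, had 33.4, 37.6, 35 and 31.7 TPM in HK livers, 34.5, 29.8, 24.9 and 26.3 in HC livers, 35.3, 24.7, 32.1 and 41.7 in H livers and 23.1, 23.6, 22.8 and 22.7 in N livers. In HK vs N all 3 rose, Psmb9 by 1.12 ± 0.16 (adjusted p = 0.00273), Tap1 by 0.87 ± 0.18 (adjusted p = 0.0173) and Psmb8 by 0.56 ± 0.12 (adjusted p = 0.0253). In HK vs HC Psmb9 rose (0.83 ± 0.14, adjusted p = 0.0106), and Tap1 and Psmb8 had 0.55 ± 0.19 (adjusted p = 0.0989) and 0.25 ± 0.11 (adjusted p = 0.169). Gene models of Psmb9 and Tap1 share 212 bases, where reads may not be separable without strand.

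**Figure D4:**
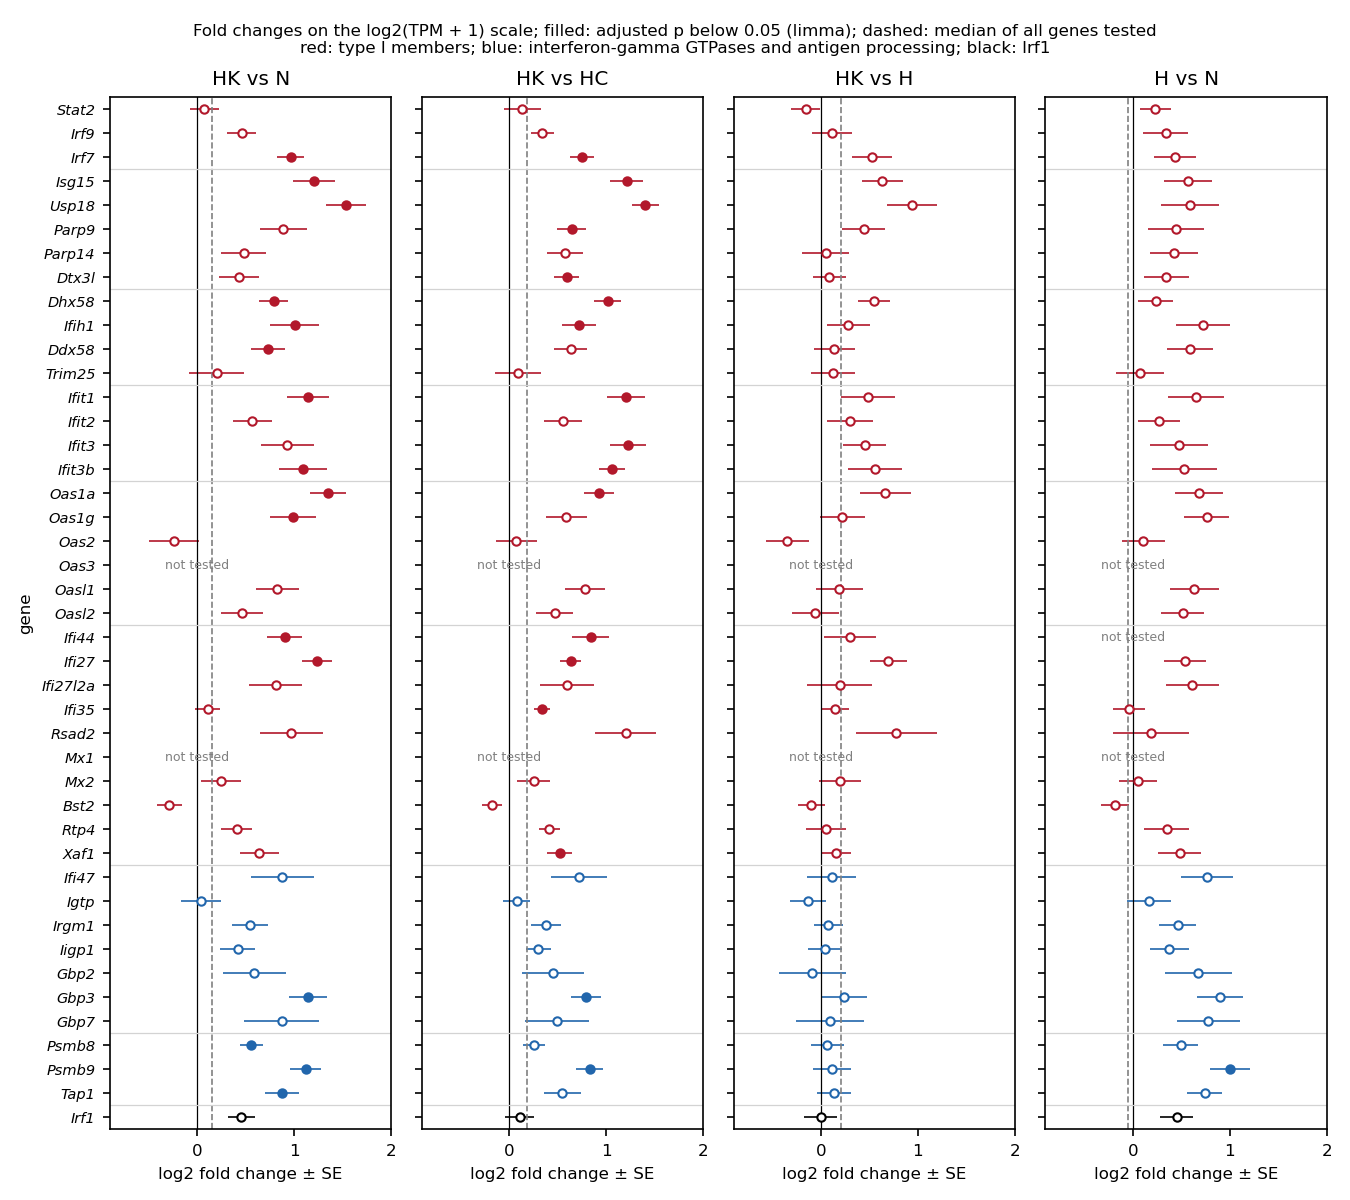
log2 fold changes with standard errors of the members in HK vs N, HK vs HC, HK vs H and H vs N, by role, with filled points for an adjusted p below 0.05 (limma) and the median of all genes tested as a dashed line. Filled points number 16, 17, 0 and 1 from left to right.

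The counts depended on single libraries. In HK vs N, 16 calls became 9 without HK1, 7 without HK2, 8 without HK3 and 8 without N4, and 23 went past the threshold without N1. Ifi44 passed the filter through HK libraries alone, so it was not tested in HK vs N when an HK library was left out. In HK vs HC, 17 calls became 11 without HK1, 10 without HK2, 11 without HK3, 10 without HC2, 11 without HC3 and 10 without HC4, and 31 passed without HK4. Irf7, Isg15, Usp18, Oas1a, Ifi27 and Psmb9 remained called in HK vs N under all 16 alternatives. Isg15, Usp18, Dhx58, Ifit1, Ifit3 and Psmb9 remained called in HK vs HC under all 15. Fewest were kept for Ifih1 and Ddx58 in HK vs N (6 of 16 each), and for Parp9, Ifih1, Ifi44, Ifi35 and Xaf1 (3 of 15 each) and Dtx3l (4 of 15) in HK vs HC. The HK vs HC count was 9 with each library centred on its median gene and 6 in a fit to all 16 libraries. The median of all genes was itself above 0, at 0.15 in HK vs N and 0.19 in HK vs HC, and members are read against it. The median type I member stood at 0.80 in HK vs N and 0.62 in HK vs HC, and the median of the 10 GTPases and antigen processing genes at 0.73 and 0.47.

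Livers on the high-fat diet throughout were set against chow livers next, where 1 of 40 tested members was called, against 1.06% of 10960 genes. This was Psmb9 (1.00 ± 0.21, adjusted p = 0.049997), whose mean was 33 ± 8.59 TPM in H and 15.7 ± 2.65 in N (SD, n = 4 each), and whose call was kept in 2 of 16 alternatives. At an unadjusted p below 0.05, 19 of the 40 were higher and 0 lower, against 4.22% of all genes higher. Every H library was above every N library for 8 of 40 members (2.48% of all genes), namely all 3 antigen processing genes, Gbp3, Ifi47, Irf1, Oas1a and Xaf1. Tap1 had 0.74 ± 0.18 (adjusted p = 0.101) and Gbp3 0.90 ± 0.24 (adjusted p = 0.14). The median was 0.45 over type I members and 0.71 over the 10 GTPases and antigen processing genes, beside −0.05 over all genes. The H libraries spread widely, with Usp18 at 5.09 TPM in H1 and 14.3 TPM in H4.

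Alternating with chow was compared with the high-fat diet throughout and with chow throughout. In HC vs H, limma called 0 of 41 members, against 0.0459% of 10899 genes, and at an unadjusted p below 0.05, 13 were lower and 0 higher (2.27% of all genes lower). The smallest p-values belonged to Psmb9 (−0.72 ± 0.20, adjusted p = 0.873) and Ifit3 (−0.78 ± 0.22, adjusted p = 0.906). The median was −0.41 in both classes, beside 0.02 over all genes. In HC vs N, limma called 0 of 38 members (1.16% of 10862 genes), and 4 were higher at an unadjusted p below 0.05 (4.89% of all genes higher). The nearest to the threshold was Ifi27 (0.60 ± 0.15, adjusted p = 0.103), for which all HC libraries lay above all N libraries. The medians were −0.01 for type I members and 0.22 for the other class, beside −0.04 over all genes.

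Between the alternating ketogenic and the constant high-fat regimen, limma called 0 of 41 members in HK vs H, against 0.036% of 11108 genes. At an unadjusted p below 0.05, 6 type I members were higher and no member of the other class, against 9.11% of all genes higher. They were Usp18 (0.94 ± 0.26, adjusted p = 0.395), Ifi27 (0.69 ± 0.19, adjusted p = 0.409), Dhx58, Isg15, Irf7 and Oas1a. Dhx58 was the 1 member of 41 whose groups did not overlap (6.3% of all genes higher). The medians were 0.21 for type I members and 0.08 for the other class, where the median of all genes was 0.21 as well. With each library centred on its median gene the class medians became −0.03 and −0.15, so that no direction is given for either class here.

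The type I members were compared with the other class within each library, as the mean log2(TPM + 1) of the 30 tested type I members minus that of the 10 GTPases and antigen processing genes. The difference averaged −0.69 ± 0.14 in HK, −0.86 ± 0.19 in HC, −0.92 ± 0.14 in H and −0.69 ± 0.14 in N (SD, n = 4 each), and its range overlapped between all groups. Type I means ran from 3.49 to 3.96 in HK, 2.93 to 3.22 in HC, 3.06 to 3.72 in H and 2.81 to 3.29 in N, so that HK did not overlap with HC or N. GTPase means ran from 3.70 to 4.60 in HK, 3.60 to 3.89 in HC, 3.85 to 4.43 in H and 3.15 to 3.98 in N, and HK overlapped with all 3. Antigen processing means ran from 4.66 to 5.05 in HK, 4.09 to 4.61 in HC, 4.49 to 5.03 in H and 3.88 to 4.19 in N, so that HK overlapped with neither HC nor N, and H did not overlap with N. Whether the 2 classes differ in their response was not tested.

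**Figure D5:**
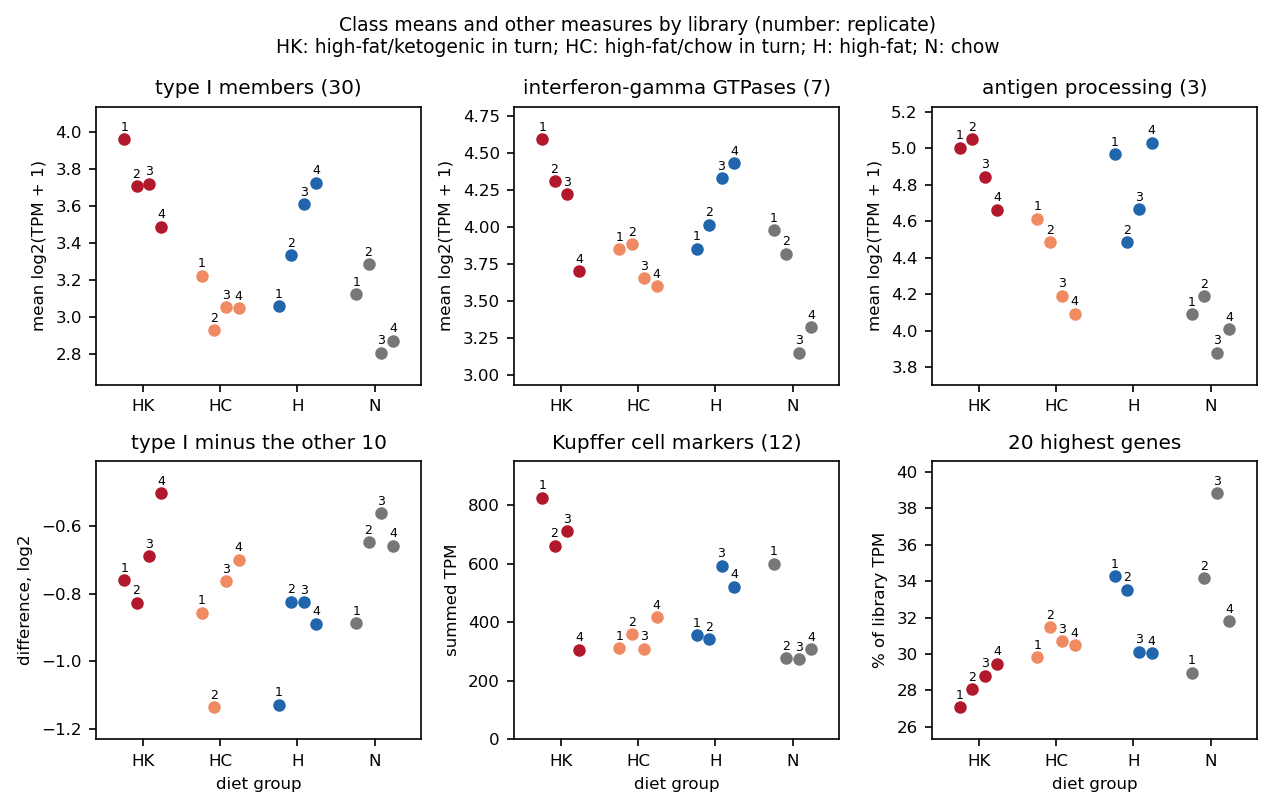
Per library (numbers mark replicates): class means of log2(TPM + 1), the type I mean minus the mean of the other 10 genes, the summed TPM of 12 Kupffer cell markers, and the share of TPM in the 20 highest genes. Of the HK libraries, HK4 has the lowest type I, GTPase and antigen processing means and the lowest Kupffer cell sum. Its type I and antigen processing means lie above all HC and N libraries, and its GTPase mean does not.

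Lists of markers of other liver cells were measured beside the members. The summed TPM of 12 markers of Kupffer cells, the resident macrophages, ran from 306 to 825 in HK, 310 to 416 in HC, 341 to 593 in H and 273 to 601 in N. All 12 were detected, their median log2 fold change was 0.80 in HK vs N and 0.77 in HK vs HC, and 0 of 12 were called in either, with 7 higher at an unadjusted p below 0.05 in each, where 16.4% and 25.7% of all genes were. HK4 had a Kupffer cell sum of 306 TPM, below every HC library, and class means of log2(TPM + 1) of 3.49 for type I members, 3.70 for GTPases and 4.66 for antigen processing genes. N1, with a Kupffer cell sum of 601 TPM, had class means of 3.13, 3.98 and 4.09. In other libraries the sum and the type I mean were high together. HK1 had 825 TPM and a type I mean of 3.96. H3 and H4 had 593 and 521 TPM with type I means of 3.61 and 3.72. H1 and H2 had 356 and 341 TPM with 3.06 and 3.34. Sums of 8 sinusoidal endothelial markers were 120 to 179 TPM in HK, 72.7 to 103 in HC, 92.1 to 136 in H and 85.2 to 146 in N. Of the 8, 2 were called higher in HK vs HC, Oit3 and Clec4g, against 4.31% of all genes, and 0 in HK vs N. Their median log2 fold change was 0.50 in HK vs N and 0.61 in HK vs HC. At an unadjusted p below 0.05, 3 and 5 were higher, against the same 16.4% and 25.7% of all genes. Sums of 13 T and NK cell markers were between 4.52 and 9.07 TPM in all libraries, and 8 of the 13 stayed below 1 TPM everywhere. Sums of 8 B and plasma cell markers were 24.8 to 50.98 TPM in HK, 32.8 to 69.7 in HC, 47.8 to 67.3 in H and 31.3 to 58.02 in N. Sums of 8 neutrophil markers stayed between 2.75 and 12.8 TPM and those of 9 stellate cell markers between 112 and 353 TPM, and no marker of these 3 types was called in HK vs N or HK vs HC. Of 5 recruited macrophage markers tested in HK vs N, 1 was called, against 5% of all genes in either direction. This was Cd9, which was lower (−1.22 ± 0.30, adjusted p = 0.0428). The median log2 fold change of the 5 was 0.16, beside 0.15 over all genes, with 3 of the 5 above 0. In HK vs HC 0 of 5 were called, and their median was 0.17, beside 0.19 over all genes. No cholangiocyte or plasmacytoid dendritic cell marker was called in either comparison. Markers of hepatocytes, 9 genes such as Alb, summed to 100139 to 113698 TPM in HK, 124786 to 137946 in HC, 103178 to 139307 in H and 119930 to 131099 in N, so that the HK sums lay below those of HC and N. A few very abundant genes make up these sums, and the median log2 fold change of the 9 was 0.04 in HK vs N and −0.33 in HK vs HC. Of the 9, Apoa1 was called higher (0.75 ± 0.17, adjusted p = 0.0267) and Ttr lower (−0.88 ± 0.16, adjusted p = 0.00965) in HK vs N, and 0 were called in HK vs HC. Of all genes, 5% and 5.04% were called in either direction. The part of the Kupffer cell, recruited macrophage, endothelial, hepatocyte and HK1 marker values in the members' results was not tested.

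The rest of the pathway was described through 7 further lists. Of 20 interferon genes, 17 were listed at 0 in every library and the rest stayed below 1 TPM, and none was tested. Ifng, the interferon gamma gene, was listed at 0 in all HK and HC libraries and at 0.0626 to 0.253 TPM in H, with 0.149 TPM in N1 and 0 in the other N libraries. Among receptors and kinases, Ifngr2, a chain of the interferon gamma receptor, rose in HK vs HC (0.71 ± 0.18, adjusted p = 0.049). The list of inhibitors and other interferon regulatory factors also held Irf2bp1 and Irf2bp2, which encode proteins that bind the factor IRF2. Of its 8 genes tested in HK vs N, 1 was called, against 5% of all genes in either direction. This was Irf2bp2, which was lower (−0.88 ± 0.22, adjusted p = 0.0425), and Irf2bp1 had −0.13 ± 0.14 (adjusted p = 0.587). No inhibitor or interferon regulatory factor of the list was called in any pair of regimens. Among 9 genes of nucleic acid sensing tested in HK vs HC, 1 was called, against 5.04% of all genes in either direction. This was Zbp1, a sensor of Z-form nucleic acid (0.59 ± 0.14, adjusted p = 0.0377). Aim2, a DNA sensor, passed the filter in HK vs N alone of the pairs, with 0.37 ± 0.25 (adjusted p = 0.392).

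Of the other type I genes, 6 of 44 tested rose in HK vs N and 9 of 44 in HK vs HC, and none fell, where 3.67% and 4.31% of all genes were called higher. Called in both were Shisa5, Herc6, Ddx60, Lgals3bp, Parp10 and Ube2l6. Ube2l6, the conjugating enzyme for ISG15, had 98, 77.6, 69.6 and 75.4 TPM in HK, 55.3, 44.8, 46.5 and 39.5 in HC, 62.9, 64.9, 61.7 and 51.1 in H and 48.7, 59.5, 45 and 50.3 in N. It rose in HK vs N (0.64 ± 0.15, adjusted p = 0.0294) and HK vs HC (0.77 ± 0.13, adjusted p = 0.0111). Herc6, the mouse ligase for ISG15, rose in HK vs N (1.13 ± 0.25, adjusted p = 0.0257) and HK vs HC (0.81 ± 0.19, adjusted p = 0.0376). Lgals3bp, a secreted glycoprotein, rose in HK vs N (0.90 ± 0.19, adjusted p = 0.0211) and HK vs HC (0.96 ± 0.14, adjusted p = 0.00563). Shisa5 rose in HK vs N (0.92 ± 0.14, adjusted p = 0.00426) and HK vs HC (0.58 ± 0.10, adjusted p = 0.0113). Adar, an RNA-editing enzyme (0.61 ± 0.14, adjusted p = 0.0404), Cmpk2, a mitochondrial nucleotide kinase (0.93 ± 0.23, adjusted p = 0.0435), and Pnpt1, an RNA-degrading phosphorylase (0.50 ± 0.10, adjusted p = 0.0211), rose in HK vs HC and were not called in HK vs N. Of 11 other GTPase genes, Gbp6 rose in HK vs HC (0.84 ± 0.20, adjusted p = 0.0418), and F830016B08Rik was lower in HK vs N (−0.94 ± 0.22, adjusted p = 0.0305) and in HC vs N (−0.96 ± 0.18, adjusted p = 0.0292). Gbp10 was called by the F test over the 4 regimens and in no pair of regimens. Of 22 other antigen processing and presentation genes, Tap2 (0.46 ± 0.11, adjusted p = 0.048), Tapbpl (0.56 ± 0.10, adjusted p = 0.0139) and the class I gene H2-Q6 (0.53 ± 0.10, adjusted p = 0.0193) rose in HK vs HC, and the class I gene H2-T23 rose in HK vs N (0.73 ± 0.13, adjusted p = 0.0103). In HK vs N, 1 of the 11 and 1 of the 22 were thus called, against 5% of all genes in either direction, and in HK vs HC 1 of the 11 and 3 of the 22, against 5.04%. H vs N, HC vs H and HK vs H called none of these listed genes.

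Outside the 43, the genes whose log2(TPM + 1) followed the type I mean most closely over the 16 libraries, of 11006 genes ranked, were Herc6 (Pearson r = 0.944), Samd9l (0.933), Osbpl3 (0.930), Lgals3bp (0.925), Trim30d (0.911), Ddx60 (0.907), Ucp2 (0.905), Cog4 (0.899), Xrcc4 (0.899) and Trim34a (0.898). Samples of 1 regimen share its level, so these values are a description over 16 libraries of 4 groups. After group means were taken away, r was 0.885 for Herc6, 0.895 for Trim30d, 0.898 for Trim34a and 0.668 for Cog4. Of the members, 25 lie in 9 clusters in which neighbours are under 500 kb apart. In 21 members a single transcript held over 90% of the gene's TPM on average, and in 4 members, among them Irf7 (42.2%) and Ifi27 (46.9%), the main transcript held under 50%.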

How the data were processed

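Both deposited tables, by gene and by transcript, are in TPM: every column summed to 1000000, although the series' design text speaks of FPKM. Per the submitters' processing notes and design text, the authors used HISAT2 with mm10, RSEM 1.1.17 with Ensembl release 96 annotation and edgeR 3.14.0. Depth per library is unknown, because TPM keeps none, so no counting interval is given. All 16 columns were matched to samples by name, and coordinates are those of the files (mm10, GRCm38).

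Values were transformed as log2(TPM + 1), which understates changes of genes near 1 TPM. A gene was tested if 4 or more libraries of the comparison reached 1 TPM, using limma 3.58.1 (intensity trend, R 4.3.3) on the 8 libraries of each pair of regimens, and with an F test over 16. P-values were adjusted by Benjamini-Hochberg over all genes tested, and a call needed an adjusted p below 0.05 and no set fold. Members, their roles, the pathway lists and the markers of 10 cell types were chosen with earlier results of these data known. Values per library are given for members called in any test and, in each role, for up to 3 members with the smallest F p. From other lists, called genes and the 2 smallest F p are named. Others are given by range. The alternatives were a pseudocount of 0.1 TPM, no filter, median centring, quantile normalization, a fit to all 16 libraries, no intensity trend, a replicate block and leaving out each library. Leaving out the 4 libraries with over 33% of TPM in their 20 highest genes was added after seeing the data. Same-numbered libraries did not deviate together (r between −0.60 and 0.40), so the numbers were not taken as pairs. Labels name no batch. One listed gene is not reported here. Python 3.11.15 was used for summaries.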

Additional observations from a re-analysis of the deposited data

Results flagged for a closer look

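In 5 of 172 groups of 4 libraries tested (43 members in 4 regimens), 1 library stood apart from the other 3 by more than Dixon's 95% critical value for the gap over the range. Chance flags about 1 in 20 groups. In HK livers, HK4 was low for Parp9 at 18.3 TPM, where the others had 25.8 to 27.0 TPM, and for Ifit1 at 6.01 TPM, where the others had 9.98 to 10.4 TPM. HK1 was high for Ifi27l2a at 29.1 TPM, where the other HK libraries had 10.7 to 12.4 TPM. In HC livers, HC1 was high for Irf7 at 30.1 TPM, where the others had 21.2 to 22.7 TPM, and for Mx1 at 0.719 TPM, where the others had 0.426 to 0.469 TPM.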

How the results depend on the processing

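No called member changed direction under any alternative run, and class medians changed sign in HK vs H (both classes) and in HC vs N (type I), where they lay near the median of all genes or near 0. Members called in HK vs N, 16 in the reported fit, numbered 7 to 23 when 1 library was left out and 10 without the 4 libraries with over 33% of TPM in 20 genes, a setting chosen after seeing the data. In HK vs HC, 17 became 11 with no filter, 9 with median centring, 11 with quantile normalization, 6 in the fit to all 16 libraries and 10 to 31 when 1 library was left out. The type I median in HK vs HC became 0.41 with median centring and 0.41 with quantile normalization, which take out the shift of all genes. In H vs N, 1 became 0 with a pseudocount of 0.1 TPM, with no filter, with no intensity trend, with the replicate block or without the 4 libraries named above, 2 with median centring or quantile normalization (Gbp3 and Tap1), 3 in the fit to all 16 libraries (Gbp3, Tap1 and Psmb9), and 0 to 1 when 1 library was left out. In HC vs N, 0 became 1 with median centring (Ifi27). The F test count of 11 ran from 7 to 16 when 1 library was left out. HC vs H and HK vs H had 0 calls throughout. The cause of these changes was not tested. The replicate block, whose numbers do not pair the samples, gave 14 calls in HK vs N, 12 in HK vs HC and 9 in the F test. The fit to all 16 libraries shares 1 estimate of the spread, and depth cannot be weighed, since TPM keeps none.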
